A study of Homo sapiens with 3 samples.

Results

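Grainyhead-like (GRHL) and OVO-like (OVOL) transcription factors, the epithelial splicing regulators ESRP1 and ESRP2, and the repressors of the epithelial program ZEB1, ZEB2 and SNAI2 form a group of 10 genes that were chosen by name. All 10 were found among the 60880 gene rows of the RNA-seq count table of wild-type NCI-H1975 cells, replicate 2. The NCI-H1975 line was established from a human lung adenocarcinoma and was grown here in RPMI medium with fetal calf serum. The study concerned cells resistant to anlotinib, a multi-kinase drug that blocks VEGF receptors among others: resistant and wild-type cells were profiled by RNA-seq and ATAC-seq, and resistant cells with TFAP2A knockdown by RNA-seq. Counts of 1 library were analysed, and the resistant, knockdown and ATAC-seq samples were not analysed here. The values below therefore describe wild-type cells, for which the labels name no drug or genetic change, with no replicate check, no contrast between cell states and no p-value.

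Epithelial and mesenchymal states are held apart by factors that repress each other. GRHL proteins bind and open enhancers of adhesion and tight junction genes, OVOL proteins are zinc finger repressors that act on mesenchymal regulators including ZEB1, and ESRP proteins favour the epithelial exons of many transcripts. ZEB1, ZEB2 and the Snail protein SNAI2 (Slug) bind E-boxes in epithelial promoters, recruit corepressors there and drive epithelial-mesenchymal transition (EMT). ZEB factors and the miR-200 microRNAs repress each other, a loop that can hold carcinoma cells in either state.

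The library held 25012733 counts, so 1 count equalled 0.0400 CPM (the count as a share of the library total, scaled as counts per 1e6) and a count of 0 was given a one-sided limit of 3 counts, or 0.120 CPM. A gene was called detected at 10 counts or more. All 10 regulators were detected, beside 69.7% of the 19046 protein-coding genes with a row. At a minimum of 1 count 10 were detected, beside 78.8% of those genes. At 50 counts 9 were, beside 62.5%, and at 1 CPM 9 were, beside 65.6%, with GRHL3 the one lost both times. Detection alone therefore says little about the group. The label of an epithelial cancer line was checked with 6 markers. All 6 were detected, beside 69.7% of all protein-coding genes, so their detection alone says little about the label. E-cadherin (CDH1) had 10561 counts, EPCAM had 4961, CLDN4 had 20412, CLDN7 had 3404, RAB25 had 291 and the epithelial factor ELF3 had 4014. These ranged from RAB25, above 31.1% of detected protein-coding genes, to CLDN4, above 99.2%. Intervals in brackets are 95% intervals that cover counting error only. No transcript lengths were used, so ratios and orders between genes are those of reads and not of transcript molecules.

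The reads of the group lay mostly on the epithelial side. The 7 epithelial genes held 8682 counts and the 3 repressors held 671 counts, a ratio of 12.9 (12.0 to 14.0). The splicing regulators ESRP1 and ESRP2 alone took 64.8% (63.8 to 65.8) of the 9353 counts of all 10 genes, the GRHL genes took 21.4% (20.5 to 22.2) and the OVOL genes took 6.66% (6.16 to 7.19). ZEB1 and ZEB2 together took 3.98% (3.59 to 4.39). The ratio of sums rests on which genes are summed: it was 7.90 without ESRP2, 3.91 without both ESRP genes, 23.3 without SNAI2, and 5.55 when the related repressor SNAI1 was added.

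**Figure D1:**
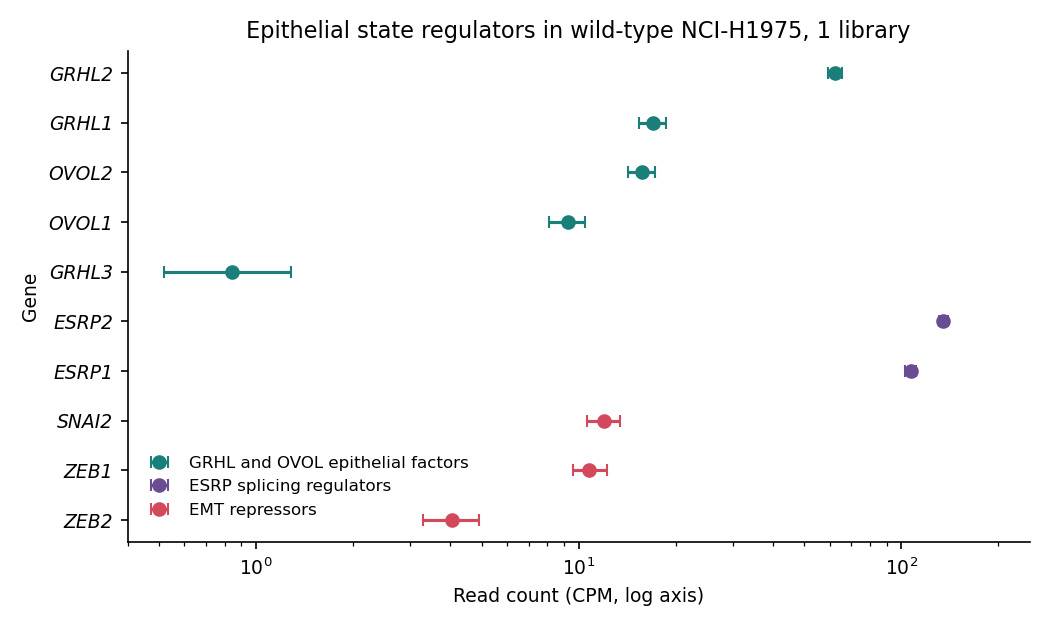
Read count in CPM (log axis) of each of the 10 regulators in wild-type NCI-H1975 replicate 2, coloured by role; points are the values of 1 library and bars are 95% Poisson intervals for counting error. The ESRP genes lie highest at 135 and 107 CPM, GRHL2 follows at 62.1 CPM, the repressors lie between 4.04 and 12.0 CPM, and GRHL3 is lowest at 0.840 CPM.

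GRHL2, the grainyhead factor best known for maintaining the epithelial state of carcinoma cells, carried most of the reads of its family. GRHL2 (ENSG00000083307.11_4) had 1554 counts, which is 62.1 CPM (59.1 to 65.3) and more than 73.3% of detected protein-coding genes had. GRHL1 (ENSG00000134317.17_2), a factor of desmosome gene expression in skin, had 424 counts, or 17.0 CPM (15.4 to 18.6). GRHL3 (ENSG00000158055.15_2), which in mouse is needed for the epidermal barrier and for neural tube closure, had 21 counts, or 0.840 CPM (0.520 to 1.28), and 4.66% of detected protein-coding genes had fewer. Of the 1999 counts of the 3 genes, 77.7% (75.9 to 79.5) were from GRHL2, 21.2% (19.4 to 23.1) from GRHL1 and 1.05% (0.651 to 1.60) from GRHL3. Reads of the family were mainly from GRHL2 with some from GRHL1, and GRHL3 was near the detection minimum. In bulk RNA, fewer cells that express a gene and less RNA per cell cannot be told apart, which holds for GRHL3 and for the ZEB genes below. GRHL2 had 3.67 times the counts of GRHL1 (3.29 to 4.09), and GRHL1 had 20.2 times those of GRHL3 (13.0 to 33.0).

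The other branch of the same DNA-binding family, the CP2 factors, was also present. UBP1 had 2455 counts, or 98.2 CPM, TFCP2 had 1036 counts, or 41.4 CPM, and TFCP2L1, a pluripotency and kidney epithelial factor, had 258 counts, or 10.3 CPM. GRHL2 had 0.633 of the UBP1 count (0.594 to 0.675).

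OVOL1 and OVOL2 were both detected, each below the median of detected protein-coding genes of 660 counts. OVOL2 (ENSG00000125850.10_3), which represses ZEB1 in epithelia, had 392 counts, or 15.7 CPM (14.2 to 17.3). OVOL1 (ENSG00000172818.9_3), a factor of epidermal differentiation, had 231 counts, or 9.24 CPM (8.08 to 10.5). The ratio of OVOL1 to OVOL2 counts was 0.589 (0.499 to 0.695). OVOL3, the third family gene, had 3 counts and was not detected.

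The ESRP genes were the most read of the group. ESRP2 (ENSG00000103067.13_4) had 3383 counts, equal to 135 CPM (131 to 140), and 89.2% of detected protein-coding genes had fewer. ESRP1 (ENSG00000104413.16_4) had 2677 counts, equal to 107 CPM (103 to 111), and 85.1% of those genes had fewer. The ratio of ESRP1 to ESRP2 counts was 0.791 (0.752 to 0.833), so the reads were split between both paralogs. RBM47, another RNA-binding protein that favours epithelial exons, had 2763 counts, or 110 CPM, and the ratio of ESRP1 to RBM47 counts of 0.969 (0.918 to 1.02) included 1.

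Splicing factors that act on the same kinds of exons in mesenchymal cells were also read. RBFOX2 had 3917 counts, MBNL1 had 3219 and QKI had 1492. HNRNPM, which competes with ESRP1 for CD44 exons, had 13667 counts and PTBP1 had 13112. RBFOX1 was at 0 and RBFOX3 had 3 counts, and 7 of the 9 listed factors were detected, beside 69.7% of all protein-coding genes. All 9 listed genes with exons that ESRP proteins are known to regulate were detected, led by CD44 with 11793 counts, the catenin gene CTNND1 with 7770 and the actin regulator ENAH with 6566. FGFR2, whose choice between epithelial and mesenchymal exons defined ESRP function, had 12 counts. These are counts per gene, so the exon choice of any of these transcripts was not measured.

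ZEB1, ZEB2 and SNAI2 were all detected, each below the median of detected protein-coding genes of 660 counts. SNAI2 (ENSG00000019549.11_4) had 299 counts, or 12.0 CPM (10.6 to 13.4). ZEB1 (ENSG00000148516.21_3) had 271 counts, or 10.8 CPM (9.58 to 12.2), and ZEB2 (ENSG00000169554.19_4) had 101 counts, or 4.04 CPM (3.29 to 4.91). They exceeded 31.5%, 29.7% and 16.4% of detected protein-coding genes in that order. The ratio of ZEB1 to ZEB2 counts was 2.68 (2.13 to 3.41). ZEB1 was thus the more read of the ZEB pair, and SNAI2 was read about as often as ZEB1.

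SNAI2 was not the main Snail gene in these cells. SNAI1 (Snail), which represses CDH1 through the same E-boxes, had 894 counts, equal to 35.7 CPM (33.4 to 38.2). SNAI2 had 0.334 of its count (0.292 to 0.382). SNAI3 had 7 counts, SCRT1 had 1 and SCRT2 was at 0. Of 10 other EMT transcription factors listed, 4 were detected, beside 69.7% of all protein-coding genes. TCF3, which encodes the E-box protein E2A and is widely expressed, had 5955 counts, the AP-1 subunit gene FOSL1 had 3148 and KLF8 had 119. TWIST1, TWIST2, TCF4 and GSC were at 0, PRRX1 had 8 counts and FOXC2 had 9. The 10 genes had a median of 8.50 counts, against 247 counts for all protein-coding genes with a row.

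**Figure D2:**
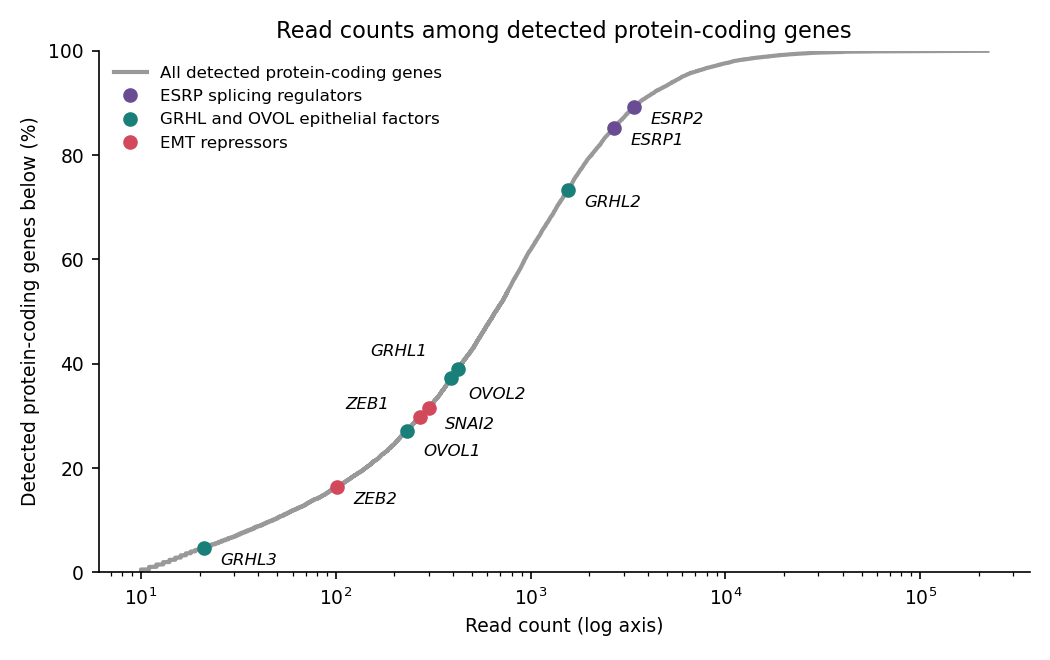
Share of the 13274 detected protein-coding genes with a lower read count (vertical axis, percent) against read count (log axis); the grey line holds all of them and coloured points are the 10 regulators. ESRP2, ESRP1 and GRHL2 lie above the median of 660 counts and the other 7 lie below it.

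In order of count the group ran ESRP2, ESRP1, GRHL2, GRHL1, OVOL2, SNAI2, ZEB1, OVOL1, ZEB2 and GRHL3. Of the 9 neighbouring pairs in this order, 6 had a ratio whose interval excluded 1. The other 3 pairs could not be ordered beyond counting error: GRHL1 over OVOL2 was 1.08 (0.941 to 1.24), SNAI2 over ZEB1 was 1.10 (0.933 to 1.31) and ZEB1 over OVOL1 was 1.17 (0.981 to 1.40). The middle of the list therefore mixed epithelial factors and repressors. OVOL1 and ZEB1 were not separable by read number, and OVOL2 had 1.45 times the counts of ZEB1 (1.24 to 1.70). GRHL2 had 5.73 times the counts of ZEB1 (5.04 to 6.55).

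MicroRNAs of the miR-200 family, which target ZEB1 and ZEB2 transcripts, come from a pair of clusters and fall into a pair of seed groups. Their mature sequences, from RefSeq on GRCh38.p14, are shown because the ZEB genes are the family's classical targets. Capitals mark the seed, bases 2 to 8 from the 5′ end. The first pair of sequences shares the seed AACACUG and the other 3 share AAUACUG.
hsa-miR-141-3p: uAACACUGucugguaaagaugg
hsa-miR-200a-3p: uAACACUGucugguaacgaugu
hsa-miR-200b-3p: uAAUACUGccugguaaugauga
hsa-miR-200c-3p: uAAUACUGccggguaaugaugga
hsa-miR-429: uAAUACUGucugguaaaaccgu
The rows of the 5 hairpin genes MIR200A, MIR200B, MIR429, MIR200C and MIR141 were all at 0. Mature microRNAs are shorter than the fragments that such RNA libraries are usually made from, so these zeros do not measure the microRNAs. The host transcript MIR200CHG had 15 counts, or 0.600 CPM (0.336 to 0.989), and MIR205HG, host of another microRNA that targets ZEB genes, had 99 counts, or 3.96 CPM (3.22 to 4.82). Beside the 271 counts of ZEB1, its antisense transcript ZEB1-AS1 had 108, and ZEB2-AS1 was at 0 beside the 101 of ZEB2. No source used here gives the strand setting of the counting, so reads where ZEB1 and ZEB1-AS1 might overlap are uncertain.

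The 12 listed epithelial genes that ZEB factors repress in other epithelial cells were each detected, beside 69.7% of all protein-coding genes. They had 142 to 10561 counts and a median of 2258, beside 247 for all protein-coding genes with a row. The most read were CDH1 with 10561 counts, the desmosomal plakophilin PKP3 with 7860 and the membrane protease ST14 with 4987. The polarity gene CRB3 had 753 counts, or 30.1 CPM (28.0 to 32.3), and its partner PATJ had 872. CRB3 is shown because its promoter is a known ZEB1 target and its window held the most E-box matches of the listed genes.
The 250 bases before the RefSeq start of CRB3 (GRCh38.p14, chr19:6464021-6464270, plus strand) are printed 5′ to 3′, with capitals for the letters CACCTG or their reverse complement CAGGTG.
CRB3: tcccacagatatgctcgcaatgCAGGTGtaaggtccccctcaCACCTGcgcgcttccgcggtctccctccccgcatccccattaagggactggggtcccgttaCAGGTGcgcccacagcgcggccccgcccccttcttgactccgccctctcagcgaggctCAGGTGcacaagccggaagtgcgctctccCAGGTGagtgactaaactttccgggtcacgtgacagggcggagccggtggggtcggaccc
The 5 matches began 228, 208, 147, 89 and 60 bases before the start. Among ZEB-repressed genes, 6 of 12 had a window in the table, and each of the 6 (CLDN7, CRB3, OCLN, PATJ, RAB25 and TJP3) had a match in at least 1 window, or in 7 of 9 windows. Over all 35116 windows of that length in the RefSeq table, 17.5% held the E-box letters on either strand. A match is a string of letters and not a measured binding site.

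Of 13 listed grainyhead target genes, 12 were detected, beside 69.7% of all protein-coding genes. Their median was 1921 counts, beside 247 for all protein-coding genes with a row. CLDN4, a tight junction claudin that GRHL2 activates, had 20412 counts, and CDH1 and ST14 followed. The receptor gene ERBB3 had 3634 counts, the protease inhibitor SPINT1 had 4121, the protease PRSS8 had 1921 and RAB25 had 291. Reads varied among listed genes tied to GRHL1 and GRHL3. In mouse skin these include TGM1, a cornified envelope cross-linker, with 74 counts here, and the desmosomal cadherin DSG1, at 0. The GRHL3 target ARHGEF19 had 704 counts. CDH1, EPCAM, ST14 and RAB25 stand in both this list and the ZEB-repressed one, so the lists are not separate readings.

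ARHGEF19, which encodes an exchange factor of the planar polarity pathway and is a GRHL3 target, had 704 counts, or 28.1 CPM (26.1 to 30.3), beside the 21 counts of GRHL3. Its promoter is shown because it was the only one of the 8 windows of 7 listed target genes to hold the palindromic grainyhead letters AACCGGTT. They began 101 bases before the start, and 0.117% of all windows held them. The sequence covers GRCh38.p14 chr1:16212653-16212902 and is printed 5′ to 3′ on the minus strand, with the motif in capitals.
ARHGEF19: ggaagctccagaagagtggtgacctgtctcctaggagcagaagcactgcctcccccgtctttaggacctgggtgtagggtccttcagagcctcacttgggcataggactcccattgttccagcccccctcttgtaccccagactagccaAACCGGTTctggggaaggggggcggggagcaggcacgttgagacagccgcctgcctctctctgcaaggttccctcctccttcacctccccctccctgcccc

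Promoter windows of the regulators themselves were searched for 4 of the 10, GRHL1, GRHL3, ZEB1 and ZEB2, and are not reported here for the others. A filter by chromosome was applied to the windows of the listed genes and not to the share over all windows. None of the 11 windows of these 4 regulators held AACCGGTT, beside 0.117% of all windows. The E-box letters were in 3 windows, 1 of GRHL3 and 2 of ZEB1, beside 17.5% of all windows. GRHL3, the least read regulator, also had a window (chr1:24322790-24323039) with 0 matches of the E-box letters. Its other window (GRCh38.p14, chr1:24319107-24319356, plus strand) is shown because it held them. They are in capitals, 21 bases before the start.
GRHL3: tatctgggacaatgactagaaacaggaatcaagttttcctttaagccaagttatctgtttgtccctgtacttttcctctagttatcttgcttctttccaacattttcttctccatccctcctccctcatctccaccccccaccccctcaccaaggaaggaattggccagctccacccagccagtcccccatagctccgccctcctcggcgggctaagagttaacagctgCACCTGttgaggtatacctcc

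Other epithelial transcription factors were detected in 10 of 11 cases, beside 69.7% of all protein-coding genes, with a median of 673 counts. ELF3 led with 4014 counts, followed by TFAP2A, the gene knocked down elsewhere in the study, with 1797 and its paralog TFAP2C with 899. EHF, an ETS factor related to ELF3, had 48 counts and ELF5 had 1. GRHL2, with 1554 counts, thus lay among the more read of these factors, and OVOL1 and OVOL2 lay below their median.

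Genes for corepressors of ZEB and Snail factors, and for proteins that act on their turnover, were detected in 10 of 10 and 7 of 7 cases. The share was 69.7% of all protein-coding genes. The 10 listed corepressor genes had 1370 to 15443 counts. The chromatin remodeller SMARCA4, a ZEB1 cofactor, had 15443 counts, CTBP1, whose protein binds ZEB1 and ZEB2, had 5227 and AJUBA, a Snail-binding adaptor, had 4169. The paralog CTBP2 had 3737 counts. The 7 listed turnover genes were led by the kinase GSK3B with 2159, FBXO11 with 1150 and FBXO45 with 854, which encode parts of ubiquitin ligases. The ubiquitin ligase adaptor FBXL14 had 552.

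Of 7 mesenchymal genes 6 were detected, beside 69.7% of all protein-coding genes. Vimentin (VIM) had 57711 counts and fibronectin (FN1) had 34838, both more than CDH1, and SPARC had 7352. N-cadherin (CDH2) had 4. The library carried many reads of ESRP1, ESRP2 and GRHL2 together with many of VIM and FN1, and fewer of the ZEB and OVOL genes.

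ZEB1 and ZEB2 are also expressed by fibroblasts, leukocytes and endothelial cells, so markers of those cells are given beside them. Of 7 markers each, 3 fibroblast, 3 leukocyte and 3 endothelial markers were detected, beside 69.7% of all protein-coding genes. The lists summed to 484, 62.0 and 15.4 CPM in that order. COL1A1 and COL1A2 held most of the reads of the fibroblast list. PDGFRB had 150 counts, more than the 101 of ZEB2, while DCN, LUM and PDGFRA were at 0 and COL3A1 had 2 counts. CSF1R, CD14 and the B-cell gene CD79A led the leukocyte list with 731, 600 and 217 counts, whereas 2 counts were from the pan-leukocyte gene PTPRC, 1 each from LYZ and CD3E and 0 from CD3D. CDH5 led the endothelial list with 340 counts, KDR had 35 and VWF had 10, while TIE1, CLDN5 and EMCN were at 0 and TEK had 1. Whether such cells contributed to the ZEB counts was not tested.

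**Figure D3:**
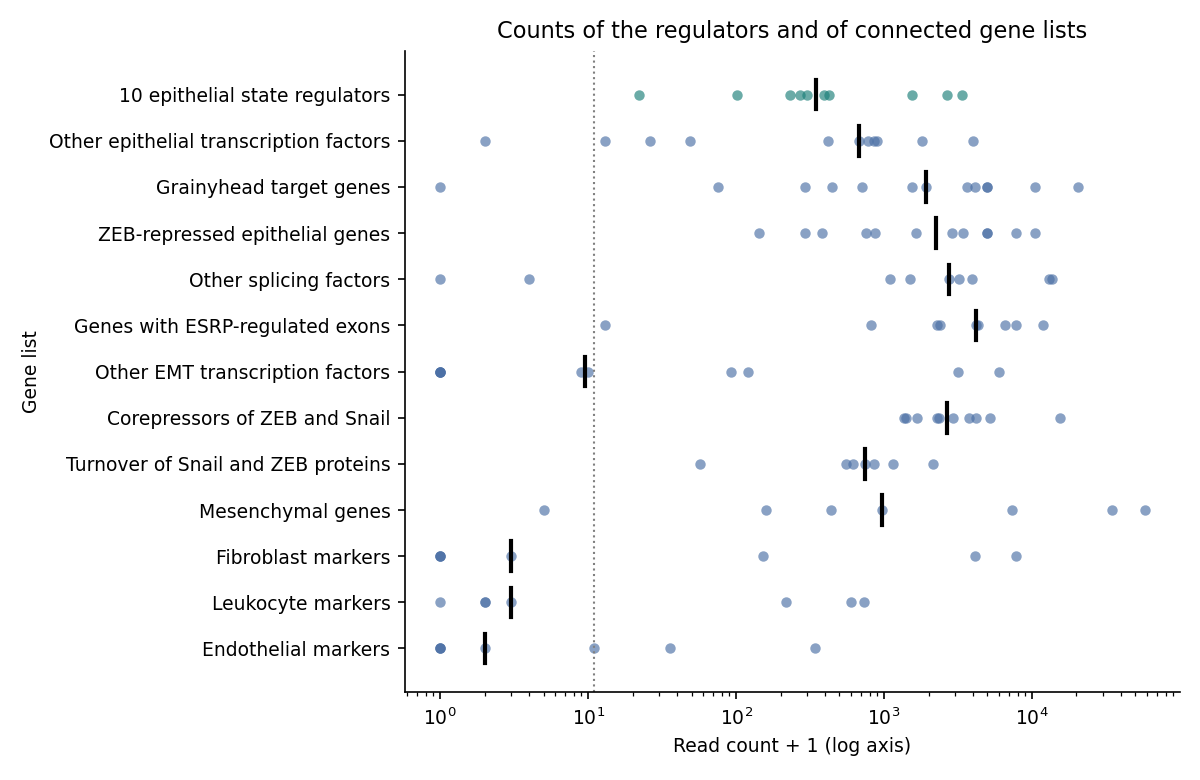
Read count plus 1 (log axis) of every gene with a row in the 10 regulators and 12 connected gene lists in wild-type NCI-H1975 replicate 2; each point is a gene, black bars are medians over all genes of a list including those at 0, and the dotted line is the detection minimum of 10 counts. The regulators span 21 to 3383 counts with a median of 346, while other EMT factors have a median of 8.50 and ZEB-repressed genes one of 2258.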

How the data were processed

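The authors deposited a raw, unnormalised count for each gene in wild-type replicate 2. Per the submitters' processing notes, the build was hg19 and the tools included featureCounts and STAR, with no role stated. Per the labels' protocols the library kit was directional. The sources used here give no annotation release, strand setting or treatment of multi-mapping reads, so reads shared by similar or overlapping genes could be split or dropped.

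Ensembl identifiers were matched without version to current symbols: 56373 of 60880 rows matched, with 99.8% of counts. Gene type came from RefSeq (GRCh38.p14) by symbol. No hg19 annotation was used, so no gene coordinates are given. Counts were divided by the library total to give CPM, with exact (Garwood) 95% Poisson intervals; shares and ratios have exact (Clopper-Pearson) intervals. The reads carry no molecular identifiers and are not independent molecules, so intervals cover counting error only. A count of 0 was given a one-sided limit of 3 counts in place of the interval. With 1 library nothing was tested between groups.

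The members and gene lists were chosen with earlier results of these data known. Named genes are the regulators, their families, the antisense and microRNA genes listed, and of each other list the 3 highest counts and up to 3 genes under 10; further genes, some ratios and the promoters shown were added after values were seen. Promoter and microRNA sequences are from RefSeq (GRCh38.p14), and motifs were searched on both strands of the 250 bases before each start. MIR205 had no matched row, and 1 gene of a list is not reported here. Interval code was tested on simulated counts. Alternatives were other detection minima, other library totals, thinning to 50% and other sums. Calculations used SciPy 1.17.1, pandas 2.3.3 and NumPy 2.4.6 in Python 3.11.15, and plots Matplotlib 3.10.9.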

Additional observations from a re-analysis of the deposited data

How the results depend on the processing

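The number of regulators detected was 10 at a minimum of 1 count and after random thinning of counts to 50%, and 9 at a minimum of 50 counts or 1 CPM, where GRHL3 was lost. The 6 ratios within families and the ratio of sums stayed inside their intervals after thinning. Thinning keeps the same expected share of every count, so it could move a ratio only by sampling. Each other library total multiplied every CPM by a shared factor of 1.06, 1.08 or 1.09. Whether a level left its interval therefore depended only on the relative width of that interval, which is narrower at higher counts. Levels of 7 regulators stayed inside their intervals under each other library total. The other 3 moved by no more than the change of the total: ESRP2 to 143, 146 and 147 CPM, ESRP1 to 113, 115 and 116 CPM, and GRHL2 to 65.7, 66.9 and 67.6 CPM, each for totals without mitochondrial genes, without the 10 most counted genes and of protein-coding genes only. The ratio of summed counts of 7 epithelial genes to 3 repressors moved to 7.90 without ESRP2 and to 23.3 without SNAI2. It moved to 3.91 without both ESRP genes and to 5.55 with SNAI1 among the repressors, a pair of alternatives chosen after seeing the data. Counts per coding or transcript length were not run, because no such lengths were used here, so the order of genes by molecules is not known. No paired analysis was possible because counts of a single library were analysed. Depth limits GRHL3 most, whose 21 counts allow 13.0 to 32.1.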
